A study of Mus musculus with 6 samples.

Results

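Proliferating cells transcribe a shared set of genes, and 38 of these, among the 29492 genes listed in the libraries, were followed here through single-cell RNA sequencing of mouse lung. The members were chosen by symbol from a list of genes of DNA replication, the mitotic kinases, the chromosomes, the spindle and the anaphase-promoting complex, and all 38 are listed in each of the 6 libraries. The mice were male C57BL/6J, 12 weeks old, with 2 in each of 3 groups: control mice given PBS, mice given LPS (the endotoxin of Gram-negative bacteria) at 1 mg/kg, and mice given LPS together with activation of the subcoeruleus nucleus (SLC), a cell group of the brainstem, 7 times. The labels write the activation as SLC-Gq. What carries Gq, in which cells, and when the activations fell relative to LPS are not given in the sources used here. A group with the activation and no LPS is not analysed here. Lungs were taken 3 days after treatment. Libraries carry the group and replicate as a name (control_1 and control_2, LPS_1 and LPS_2, and SLC_1 and SLC_2 for SLC activation plus LPS), and a pair of values is always in that order of replicates. The 2 replicates of a group share only a number, and with 2 mice per group each p-value speaks for the spread between these mice.

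As background, a cell that divides first copies its DNA in S phase, then condenses and parts its chromosomes in mitosis. E2F factors drive the genes of replication at the start of S phase, and the MuvB complex with MYB or FOXM1 drives the genes of mitosis in G2, largely through a short element known as CHR and nearby CCAAT boxes. In the lung, tissue-resident alveolar macrophages renew themselves by local division, lymphocytes divide after activation, and neutrophils have left the cell cycle before they enter the blood. The 38 members fall into 5 roles. The 12 genes of DNA replication and nucleotide supply hold the 6 subunits of the replicative helicase (Mcm2, Mcm3, Mcm4, Mcm5, Mcm6 and Mcm7), the sliding clamp Pcna, the 2 subunits of ribonucleotide reductase (Rrm1 and Rrm2), thymidylate synthase (Tyms), thymidine kinase (Tk1) and Uhrf1, which keeps DNA methylation on the copied strand. The 7 cyclins and mitotic kinases are Ccna2, Ccnb1 and Ccnb2 with their partner Cdk1, and the kinases Aurka, Aurkb and Plk1. The other roles are chromosomes and centromeres (Mki67, Top2a, Cenpa, Cenpe, Cenpf, Birc5 and Cdca8), spindle and microtubules (Tpx2, Kif11, Kif20a, Kif23, Prc1, Nusap1, Hmmr and Stmn1), and spindle checkpoint and anaphase-promoting complex (Bub1, Bub1b, Cdc20 and Ube2c).

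The promoters of the members were read from RefSeq's table for GRCm38.p6, which holds a window from 250 bases before to 50 after the start for 32 of the 38. The deposited files use GRCm39, so only the sequences and their RefSeq positions were taken from that table. A CHR (TTTGAA or TTCGAA, searched on both strands) lay in 19 of the 32 windows, 59.4%, against 19.4% of the windows of 27025 genes. A CCAAT box (CCAAT, read as ATTGG on the other strand) lay in 28 of 32, 87.5%, against 37.9%, and an E2F word (TTTCCCGC, TTTCGCGC, TTTGGCGC or TTTGCCGC, both strands) in 5 of 32, 15.6%, against 2.32%. By role, a CHR was found for 2 of 11 replication genes and 17 of the 21 others, and an E2F word for 4 of 11 and 1 of 21. A match is a description of letters and not a measured site. The 250 bases before the start are given next, 5′ to 3′, for a mitotic kinase (Cdk1, chr10:69352913-69353162, minus strand), a chromosome protein (Mki67, chr7:135716380-135716629, minus strand) and 2 helicase subunits (Mcm5, chr8:75109259-75109508, plus strand, and Mcm6, chr1:128359706-128359955, minus strand), since the results below turn on these genes and they show both kinds of promoter. Capitals mark CHR, CCAAT and E2F words.
Cdk1: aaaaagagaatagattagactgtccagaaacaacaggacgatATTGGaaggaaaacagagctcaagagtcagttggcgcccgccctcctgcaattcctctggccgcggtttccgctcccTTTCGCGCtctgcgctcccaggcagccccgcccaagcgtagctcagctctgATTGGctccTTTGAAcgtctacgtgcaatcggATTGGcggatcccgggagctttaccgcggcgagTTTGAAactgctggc
Mki67: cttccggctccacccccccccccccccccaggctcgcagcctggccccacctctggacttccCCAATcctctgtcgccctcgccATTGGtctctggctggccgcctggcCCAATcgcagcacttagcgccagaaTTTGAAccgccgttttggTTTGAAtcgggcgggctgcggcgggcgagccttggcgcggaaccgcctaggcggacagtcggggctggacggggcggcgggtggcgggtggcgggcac
Mcm5: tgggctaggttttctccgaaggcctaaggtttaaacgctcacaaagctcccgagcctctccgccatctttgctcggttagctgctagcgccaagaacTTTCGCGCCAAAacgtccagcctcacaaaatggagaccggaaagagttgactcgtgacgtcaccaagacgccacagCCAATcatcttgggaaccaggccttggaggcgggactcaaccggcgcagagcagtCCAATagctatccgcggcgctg
Mcm6: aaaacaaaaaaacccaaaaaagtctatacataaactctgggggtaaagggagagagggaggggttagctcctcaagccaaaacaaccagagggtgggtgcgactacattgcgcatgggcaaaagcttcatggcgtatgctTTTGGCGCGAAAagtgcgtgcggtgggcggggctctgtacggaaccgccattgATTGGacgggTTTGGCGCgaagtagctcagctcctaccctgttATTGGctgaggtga
Cdk1 has a CHR at 71 and at 15 bases before its start, CCAAT boxes at 208, 80 and 48, and an E2F word at 131. Mki67 has a CHR at 116 and at 98 and CCAAT boxes at 188, 166 and 141, with no E2F word in this window. Mcm5 and Mcm6 have no CHR there. In Mcm5 E2F words of both strands overlap at 153 and 149, and in Mcm6 at 110 and 106, with another at 47.

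The values are counts of unique molecular identifiers (UMIs, 1 per captured RNA molecule). Each library held 31589233 to 48641470 UMIs, and 11608 to 13710 barcodes of each passed as cells, at a median depth of 1134 to 2606 UMIs. Mitochondrial UMIs made up a median of 8.82% and 7.99% of a control cell and 1.23% to 2.86% of a cell of the other groups. Free RNA, read from barcodes with 10 to 99 UMIs, held the 38 genes at 743 and 822 CPM in the controls, 1122 and 1128 after LPS, and 1343 and 883 after SLC activation plus LPS. Scrublet's automatic doublet calls were under 0.5% of cells in 3 of 6 libraries, so doublets were not removed, and cells with a top doublet score made up 4.73% to 7.602% of cells with at least 3 UMIs of the members and 5.79% to 7.93% of the other cells. Cells were put into classes by marker genes, and levels are given in CPM, UMIs per 1000000 of the class or library. Cells that reached no class stayed ungated. They were 3.42% and 4.23% of cells in the controls, 21.1% and 8.77% after LPS, and 17.4% and 16.4% after SLC activation plus LPS. Their part in the class values was not tested. Any pair of libraries shares at most 6 barcodes among its cells.

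Over whole libraries, cell cycle genes stood higher after LPS than in controls, and the cyclins and mitotic kinases moved most. The 38 members together held 1078 and 1106 CPM in the controls, 1329.6 and 1450.4 after LPS, and 1537 and 1250.1 after SLC activation plus LPS. The 7 cyclins and kinases went from 50.1 ± 8.32 CPM in the controls to 111 ± 7.31 and 122 ± 41.8 CPM (SD, n = 2), while the 12 replication genes held 512 ± 8.60, 576 ± 62.3 and 547 ± 85.6 CPM. In such sums over all cells, more dividing cells, more of this RNA per cell and a changed mix of cells cannot be told apart. Neutrophils were 17.5% and 14.1% of cells in the controls, 35.2% and 31.8% after LPS, and 49.4% and 40.5% after SLC activation plus LPS. Fibroblasts were 16.6% and 22.2%, 2.84% and 6.48%, and 4.04% and 2.49% in that order. The part of this shift in the whole-library levels and calls was not tested.

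By summed level of each role, the replication genes were the most abundant and the least different, and Pcna, at a mean of 274 CPM over the 6 libraries, made up much of their sum. Pcna had the highest mean level of all members and was listed at 282 and 265 CPM in the controls, 267 and 326 after LPS, and 276 and 228 after SLC activation plus LPS, and these groups overlap. Mcm4, a helicase subunit, stood at 62.3 and 65.1 CPM in the controls, 51.3 and 71.5 after LPS, and 65.2 and 59.7 after SLC activation plus LPS, also with overlap. Neither passed the test, while Mcm5 and Rrm2 of the same role did, as given below. Among the cyclins and kinases, Ccna2, the cyclin of S phase and G2, stood at 11.4 and 13.2 CPM in the controls, 27.0 and 33.0 after LPS, and 35.8 and 24.9 after SLC activation plus LPS. Cdk1, the kinase that starts mitosis, stood at 11.9 and 15.5 CPM in the controls, 27.4 and 28.1 after LPS, and 40.3 and 27.0 after SLC activation plus LPS. For both genes every library given LPS lay above both controls. Mki67, which coats mitotic chromosomes, stood at 58.0 and 65.8 CPM in the controls, 128 and 109 after LPS, and 90.8 and 129 after SLC activation plus LPS, again with no overlap with the controls. The centromeric histone Cenpa did not follow it and stood at 84.4 and 65.6 CPM in the controls, 62.6 and 76.2 after LPS, and 55.7 and 56.6 after SLC activation plus LPS. Of the spindle genes, Stmn1, which destabilises microtubules, stood at 174 and 193 CPM in the controls, 186 and 215 after LPS, and 253 and 218 after SLC activation plus LPS, and Kif23, a motor of the dividing cell's midzone, at 26.4 and 32.9 CPM in the controls, 26.8 and 39.8 after LPS, and 30.7 and 22.1 after SLC activation plus LPS. LPS_1 lay between the controls in both of these genes. Ube2c, which hands ubiquitin to the anaphase-promoting complex, stood at 13.7 and 13.7 CPM in the controls, 28.7 and 14.2 after LPS, and 32.8 and 20.3 after SLC activation plus LPS. The checkpoint kinase Bub1b stood at 10.9 and 15.6 CPM in the controls, 13.6 and 7.00 after LPS, and 17.0 and 10.6 after SLC activation plus LPS, with LPS_2 lowest of the 6. Levels of different genes are not compared per length here, and the counts are of molecules.

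Tested one by one with edgeR's quasi-likelihood test and Benjamini-Hochberg adjustment over all genes, 9 of 38 members were higher after LPS than in controls and 0 were lower, where 3.96% of 17900 genes were called higher and 3.88% lower. Their median log2 fold change was 0.96, against −0.02 over all genes tested, and all 38 values were above 0. The 4 with the smallest p were Ccna2 at 1.66 (SE 0.259, adjusted p = 0.0242), Top2a, which untangles DNA, at 1.36 (SE 0.246, adjusted p = 0.0314), Ccnb1, the cyclin of mitosis, at 1.75 (SE 0.323, adjusted p = 0.0325), and Birc5 (survivin), of the chromosomal passenger complex, at 1.10 (SE 0.208, adjusted p = 0.0337). Top2a stood at 32.4 and 35.5 CPM in the controls, 57.0 and 78.2 after LPS, and 57.3 and 41.7 after SLC activation plus LPS. Ccnb1 stood at 4.26 and 4.91 CPM in the controls, 12.6 and 11.2 after LPS, and 17.9 and 10.6 after SLC activation plus LPS, and Birc5 at 31.4 and 34.3 CPM in the controls, 57.3 and 51.1 after LPS, and 75.8 and 63.3 after SLC activation plus LPS. All 3 genes had every treated library above both controls. The other 5, Cdk1, Mki67, Mcm5, Rrm2 and Tpx2, had log2 fold changes of 1.10 to 1.39 (adjusted p 0.0350 to 0.0463).

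After SLC activation plus LPS, 12 of 38 were higher than in controls and 0 lower, where 5.2% of genes were called higher and 7.17% lower. The median was 1.06, against −0.01 over all genes, with 37 values above 0. Birc5 came first with 1.45 (SE 0.209, adjusted p = 0.0212), then Ccna2 with 1.66 (SE 0.259, adjusted p = 0.023), Ccnb1 with 1.99 (SE 0.326, adjusted p = 0.0249) and Cdk1 with 1.66 (SE 0.27, adjusted p = 0.0249). The other 8, Kif20a, Tpx2, Rrm2, Hmmr, Mki67, Uhrf1, Mcm5 and Plk1, ranged from 1.07 in Mcm5 to 2.31 in Plk1, the kinase that matures the spindle poles (adjusted p 0.0307 to 0.0489). By role, and with the LPS comparison first, the test called 2 and 3 of 12 replication genes, 3 and 4 of 7 cyclins and kinases, 3 and 2 of 7 chromosome genes, 1 and 3 of 8 spindle genes, and 0 of 4 checkpoint and anaphase genes in both. Both comparisons use the same 2 control libraries, so their likeness is no separate evidence. Without regard to the test, 23 and 24 of 38 members had both treated libraries above both controls, where 14.7% and 19.1% of genes did. In the second comparison Cenpa alone had both below, where 53.3% of genes did.

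These counts depend on the scaling and on single libraries. With library totals in place of TMM factors, which moved the median over all genes to −0.39 and −0.38, the members' medians were 0.58 and 0.70, 32 and 33 of 38 lay above 0, and 2 and 5 were called. Without control_1 or without control_2 no member was called in either comparison, without SLC_1 the counts were 4 and 0, without SLC_2 3 and 0, without LPS_1 11 and 22, and without LPS_2 17 and 22. The members' level in free RNA, given above, moved with the groups in the same direction, and its part in these values was not tested.

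**Figure D1:**
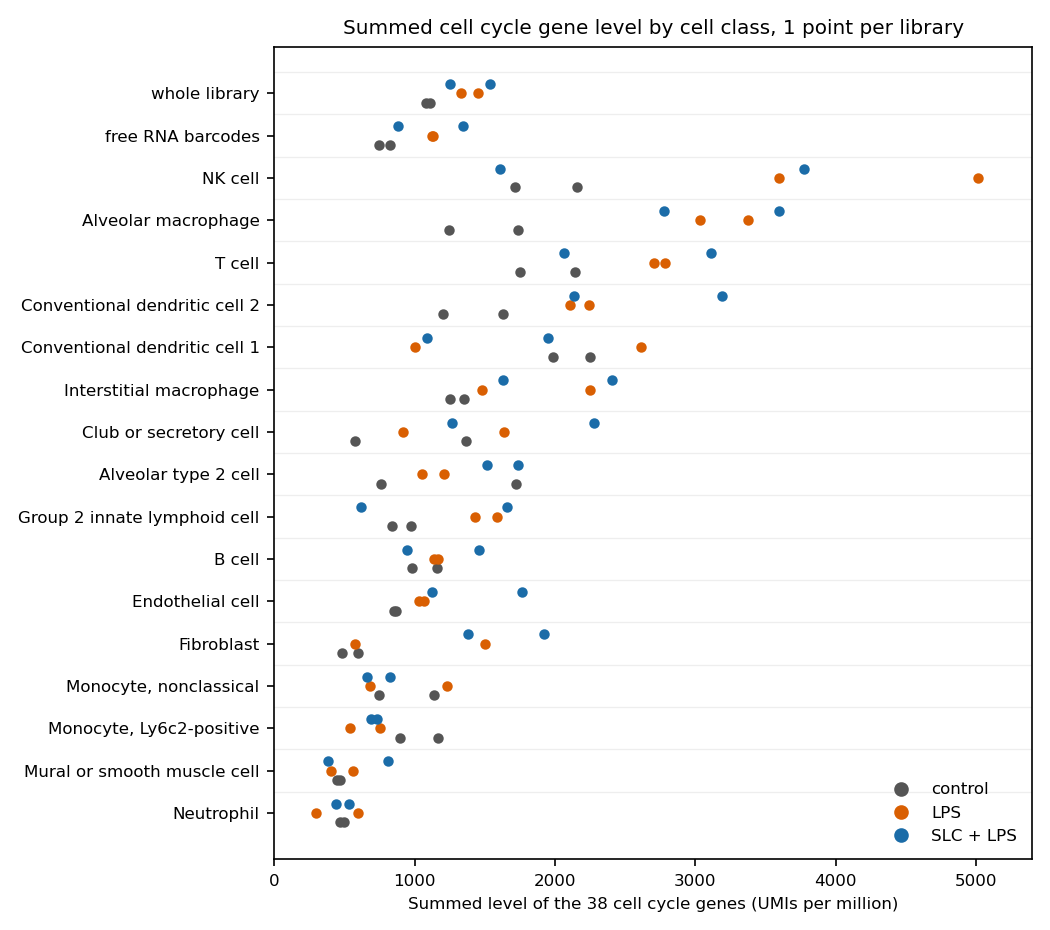
Summed level of the 38 cell cycle genes (x axis, CPM of the class) in whole libraries, free RNA and each cell class (y axis), with 1 point per library coloured by group. Alveolar macrophages of the 4 libraries given LPS lie between 2775 and 3599, above the controls at 1247 and 1740, and neutrophils lie between 299.6 and 594 in all groups.

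Counted per cell, the share of cells with at least 3 UMIs of the 38 genes was 25.4% and 22.1% in the controls, 23.5% and 31.5% after LPS, and 21.2% and 17.0% after SLC activation plus LPS. This share follows depth, so each cell was also thinned to 1000 UMIs, leaving out 4724, 2857 and 7401 shallower cells of the 3 groups. The thinned share was 7.25% and 7.16% in the controls, 7.18% and 8.91% after LPS, and 6.86% and 7.17% after SLC activation plus LPS. LPS_2, at 2606 UMIs per cell the deepest library, was highest in both, and the other 5 libraries lay between 6.86% and 7.25% after thinning. So the share over all cells did not follow the rise of the cyclins, and the cell classes differed. In neutrophils, which have left the cell cycle, the unthinned share was 2.84% to 7.01% at a median depth of 1045 to 2571 UMIs, and the thinned share 1.04% to 2.85%. That thinned range is a reference for the other classes and not a background free of these RNAs. Neutrophils held Kif23 and Mki67 mostly outside cells rich in the other members, as given below. Mural cells lay near the neutrophil range, at 0.826% to 4.43%, and fibroblasts and the nonclassical monocyte gate lay within it in some libraries. All other classes tested lay above it in every library. Of these, endothelial cells (3.08% to 12.0%) and Ly6c2-positive monocytes (3.24% to 9.78%) reached lowest. The type 1 dendritic cell and Ly6c2-positive monocyte gates held different cells by group, as given below.

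**Figure D2:**
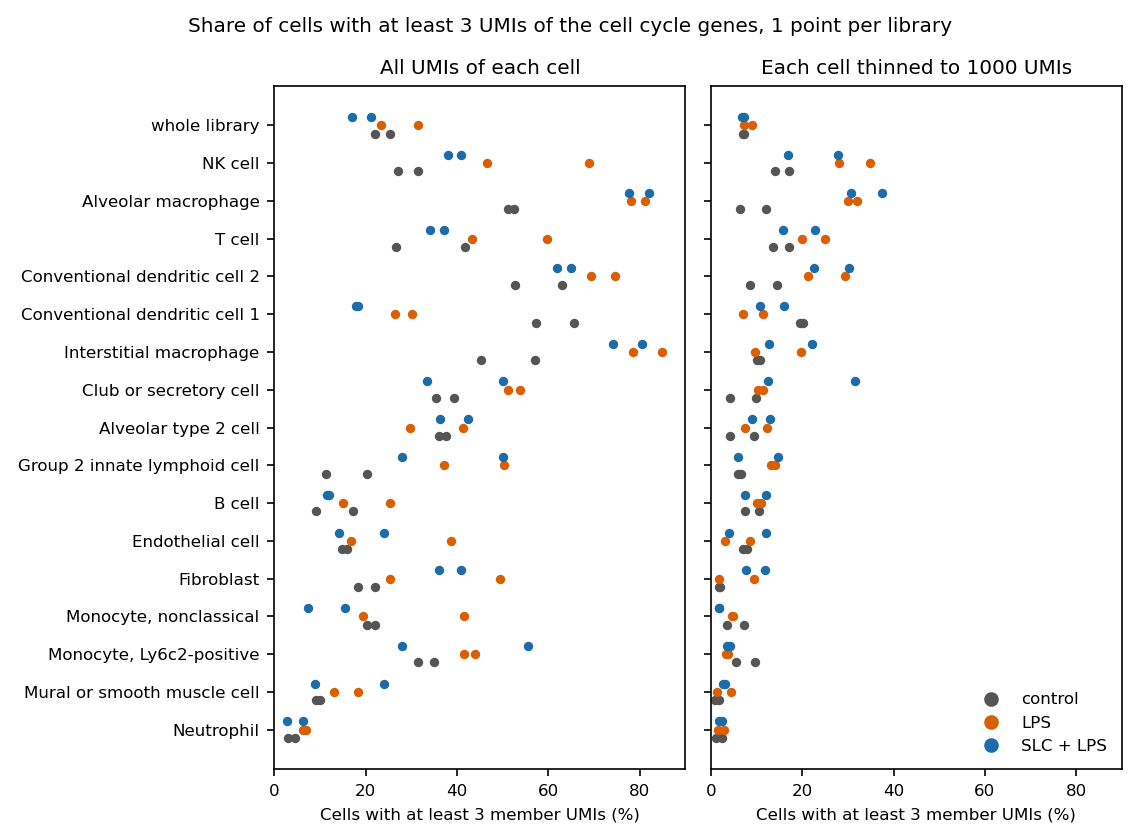
Share of cells with at least 3 UMIs of the cell cycle genes (x axis, percent) by cell class (y axis), from all UMIs of each cell on the left and with each cell thinned to 1000 UMIs on the right, 1 point per library. After thinning, alveolar macrophages went from 6.49% and 12.0% in the controls to 30.0% to 37.5% in the other libraries, while whole libraries stayed between 6.86% and 8.91%.

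Alveolar macrophages, the phagocytes of the air spaces, had the most members called of the classes tested. Their 38 genes together held 1247 and 1739.8 CPM in the controls, 3037 and 3377 after LPS, and 3599 and 2775 after SLC activation plus LPS. Thinned to 1000 UMIs, 6.49% and 12.0% in the controls, 30.0% and 32.1% after LPS, and 37.5% and 30.6% after SLC activation plus LPS of these cells had at least 3 member UMIs, and unthinned 51.1% and 52.6% in the controls, 78.2% and 81.0% after LPS, and 82.0% and 77.7% after SLC activation plus LPS. Ccna2 stood at 17.7 and 34.8 CPM in the controls, 101 and 119.9 after LPS, and 113 and 91.6 after SLC activation plus LPS, and Cdk1 at 24.5 and 39.2 CPM in the controls, 92.8 and 107 after LPS, and 116 and 91.0 after SLC activation plus LPS. The lowest library given LPS stood above both controls in each of these genes. Mki67 stood at 39.9 and 67.9 CPM in the controls, 139 and 216 after LPS, and 166 and 155 after SLC activation plus LPS. Cenpa, which was not called over whole libraries, stood here at 36.8 and 47.7 CPM in the controls, 111 and 97.3 after LPS, and 102 and 83.9 after SLC activation plus LPS. In these 4 genes both controls lay below all 4 other libraries.

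Replication genes were among those called in this class. Pcna stood at 344 and 346 CPM in the controls, 423 and 500.05 after LPS, and 445 and 352 after SLC activation plus LPS, with no overlap with the controls and no call (adjusted p = 0.142 and 0.328). Mcm4 stood at 48.8 and 59.6 CPM in the controls, 80.2 and 109 after LPS, and 124 and 80.9 after SLC activation plus LPS. Of the spindle genes, Stmn1 stood at 197 and 314 CPM in the controls, 507 and 548 after LPS, and 646 and 566 after SLC activation plus LPS, and passed the test after SLC activation plus LPS at 1.46 (SE 0.285, adjusted p = 0.043), and did not after LPS at 1.31 (SE 0.284, adjusted p = 0.0539). The difference between those 2 groups was not called for any member. Kif23 stood at 32.6 and 59.6 CPM in the controls, 46.5 and 71.1 after LPS, and 61.2 and 30.1 after SLC activation plus LPS, and the groups overlap. Ube2c stood at 12.1 and 31.5 CPM in the controls, 94.7 and 48.0 after LPS, and 99.0 and 61.5 after SLC activation plus LPS, with every treated library above both controls. Bub1b alone went the other way and stood at 42.2 and 52.5 CPM in the controls, 30.2 and 25.6 after LPS, and 38.2 and 30.7 after SLC activation plus LPS, with log2 fold changes of −0.51 (SE 0.256, adjusted p = 0.299) and −0.24 (SE 0.256, adjusted p = 0.616) that did not pass.

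By edgeR's test, 14 of 38 members were higher after LPS in alveolar macrophages, where 1.9% of 11738 genes were called higher, and 18 of 38 after SLC activation plus LPS, where 1.93% were. No member was lower, the medians were 1.60 and 1.58 against 0.02 over all genes in both, and 37 of 38 values lay above 0 in each. At an unadjusted p under 0.05 there were 34 of 38 in each, and DESeq2 called 27 in each. The shares of all genes by these 2 measures are not given here, and the 1.9% and 1.93% are no background for them. The smallest p after LPS were those of Ccna2, 2.34 (SE 0.361, adjusted p = 0.0278), Cdk1, 1.91 (SE 0.307, adjusted p = 0.0299), Cenpa, 1.56 (SE 0.251, adjusted p = 0.0299), and Ccnb1, 2.23 (SE 0.36, adjusted p = 0.0301). After SLC activation plus LPS they were those of Ccnb1, 2.29 (SE 0.361, adjusted p = 0.0312), Cdk1, 1.91 (SE 0.307, adjusted p = 0.0312), Rrm1, the large subunit of ribonucleotide reductase, 1.496 (SE 0.244, adjusted p = 0.0312), and Ccna2, 2.17 (SE 0.36, adjusted p = 0.032). Ccnb1 stood at 8.29 and 16.7 CPM in the controls, 48.4 and 49.3 after LPS, and 57.9 and 47.7 after SLC activation plus LPS, and Rrm1 at 50.7 and 67.7 CPM in the controls, 127 and 125 after LPS, and 149 and 139 after SLC activation plus LPS. In both genes the 2 groups given LPS lay wholly above the controls. The other 10 after LPS were Mcm5, Birc5, Rrm2, Tyms, Mki67, Rrm1, Aurkb, Uhrf1, Tpx2 and Mcm6, at 1.35 to 1.99 (adjusted p 0.0333 to 0.0377). The other 14 after SLC activation plus LPS were Birc5, Mcm6, Tpx2, Rrm2, Kif20a, Cenpa, Mcm5, Stmn1, Tyms, Mki67, Uhrf1, Mcm2, Plk1 and Aurkb, at 1.35 to 2.56 (adjusted p 0.0343 to 0.0480).

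Counted by role, with the LPS comparison first, the calls took in 6 and 7 of 12 replication genes, 4 and 5 of 7 cyclins and kinases, 3 and 3 of 7 chromosome genes, 1 and 3 of 8 spindle genes, and 0 of 4 checkpoint and anaphase genes. Regardless of the test, 36 and 35 of 38 members had both treated libraries above both controls, where 15.9% and 21.6% of genes did, and Bub1b was the 1 member below, where 40.2% and 42.9% of genes were. Tyms and Uhrf1, the one making thymidylate and the other guarding DNA methylation, were called in this class in both comparisons, and over whole libraries Tyms in neither.

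**Figure D3:**
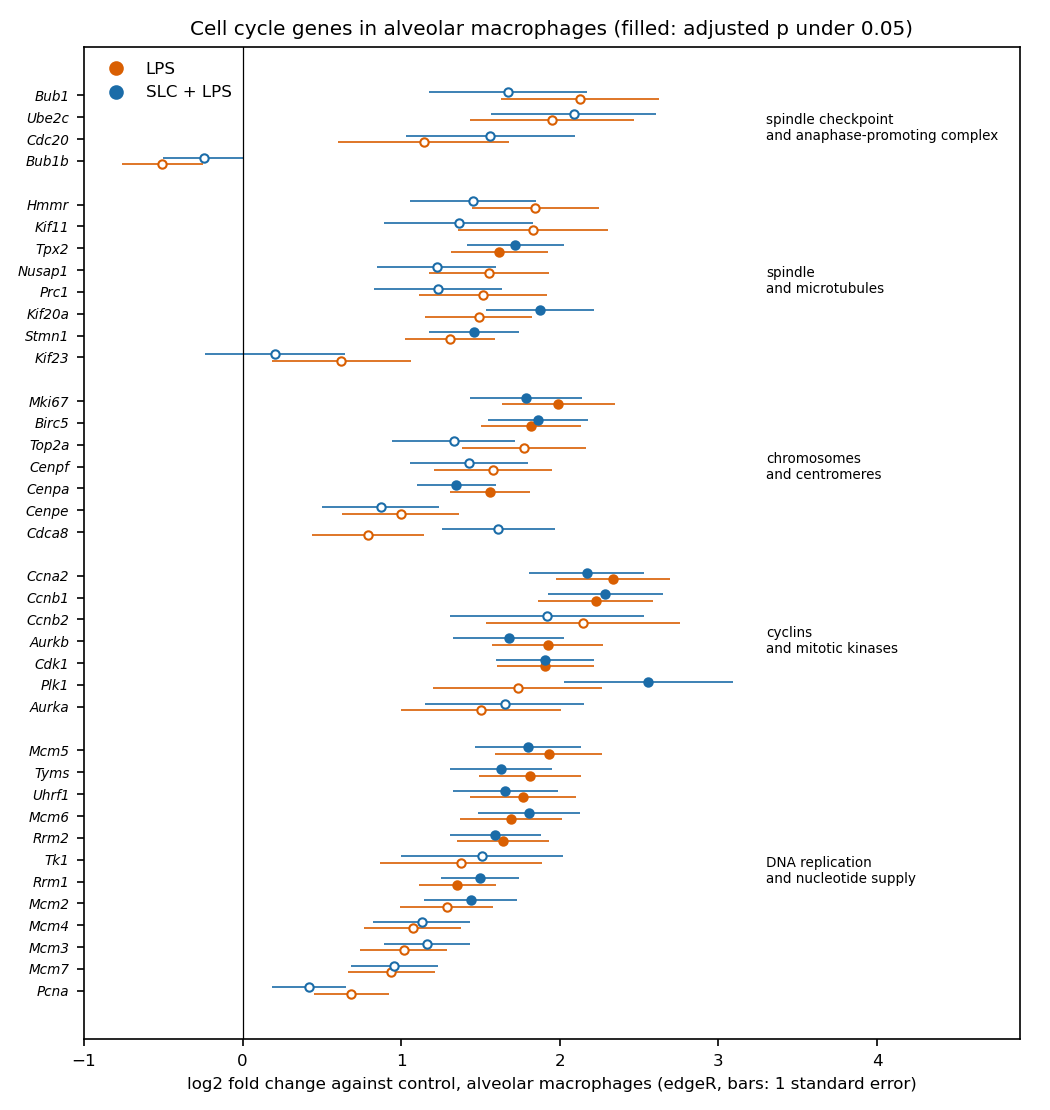
The log2 fold change of each of the 38 cell cycle genes in alveolar macrophages against control (x axis, edgeR, bars of 1 standard error), with genes grouped by role (y axis), LPS and SLC activation plus LPS in 2 colours, and filled points for adjusted p under 0.05. Of the 38 genes 37 lie above 0 in each comparison, with 14 and 18 filled, and Bub1b lies below 0 in both.

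In alveolar macrophages other measures moved with the groups too. The class held 974 and 1176 cells in the controls and 357, 712, 677 and 346 in LPS_1, LPS_2, SLC_1 and SLC_2, with a median of 4827 and 4141.5 UMIs per control cell and 10258 to 12275 in the others. Control cells lay to 96.9% in cluster 14. Cells of the other groups lay to 76.6% and 74.8% in cluster 16 and to 16.0% and 14.9% in cluster 24. All 3 clusters were named alveolar macrophage by their markers. Cluster 14 held 959 and 1156 cells of the controls and 2 to 11 of each other library. Cluster 16 held 3 and 0 cells of the controls and 268 to 570 of each other library. So the tests in this class compare cells of different clusters, and the part of this shift was not tested. Neutrophil markers summed over 10 genes stood at 683 and 691 CPM in the controls and at 1680 to 3062 CPM in the others, and T cell markers over 12 genes at 84.6 and 95.4 against 14.5 to 64.2 CPM. Leaving out the cells that lay in neutrophil clusters (0% of control cells, 0.983% to 9.54% of the others) ended none of these calls. With library totals in place of TMM, 11 and 10 were called, 37 and 36 of 38 values lay above 0 and the medians were 1.33 and 1.37, against −0.25 and −0.20 over all genes. Without control_1 or without control_2 none was called. Without SLC_1 the counts were 6 and 0, without SLC_2 8 and 0, without LPS_1 25 and 28 and without LPS_2 20 and 28.

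Interstitial macrophages, which live in the lung's connective tissue, held the 38 genes together at 1256 and 1354 CPM in the controls, 1480.1 and 2249 after LPS, and 2406 and 1628 after SLC activation plus LPS. Of 37 members tested, none passed after LPS, where 1.53% of 10411 genes were called in either direction, and 4 were higher after SLC activation plus LPS, where 1.08% were called higher. Hmmr, a spindle protein, rose by 2.21 (SE 0.352, adjusted p = 0.0267), Birc5 by 1.69 (SE 0.276, adjusted p = 0.0292), Cdk1 by 1.89 (SE 0.365, adjusted p = 0.0438) and Plk1 by 3.92 (SE 0.799, adjusted p = 0.0484). Hmmr stood at 6.80 and 5.79 CPM in the controls, 19.0 and 23.9 after LPS, and 30.1 and 26.4 after SLC activation plus LPS, and Plk1 at 0.378 and 0.446 CPM in the controls, 3.90 and 2.11 after LPS, and 8.72 and 4.60 after SLC activation plus LPS. Each treated library was above both controls in these genes. In each control library the Plk1 value rests on the fewest UMIs that a detected gene can have, so the size of its fold change is uncertain. After LPS the smallest p were those of Hmmr, 1.82 (SE 0.357, adjusted p = 0.0559), and Mki67, 1.63 (SE 0.344, adjusted p = 0.0637), and 19 of 37 had an unadjusted p under 0.05, with 4 called by DESeq2. Whether the 2 groups differ is tested below, and no member passed. Control cells lay to 94.9% in cluster 17 and the others to 68.0% and 66.3% in cluster 15, both named interstitial macrophage. Cluster 15 held 6 and 2 cells of the control libraries, and 57.1% of its gated cells were of this class. After SLC activation plus LPS 15.9% of the gate's cells lay in Ly6c2-positive monocyte cluster 8. So these tests compare partly different cells. The 4 calls ended without control_1, control_2, SLC_1 or SLC_2 and with classes taken from clusters, and without LPS_1 or LPS_2 there were 14 and 15.

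Conventional dendritic cells of type 2, which present antigen to helper T cells, held the members at 1632 and 1206 CPM in the controls, 2106 and 2239.9 after LPS, and 3193 and 2134 after SLC activation plus LPS. Mcm6, a helicase subunit with 3 E2F words in its window, stood at 8.82 and 5.78 CPM in the controls, 42.7 and 53.7 after LPS, and 78.4 and 36.5 after SLC activation plus LPS. The edgeR test called it higher after LPS, at 2.53 (SE 0.519, adjusted p = 0.0311), where 1.82% of 6366 genes were called higher. After SLC activation plus LPS it was called higher at 2.73 (SE 0.536, adjusted p = 0.0404), where 0.895% were. It was the 1 member of 30 tested to pass in either. Control cells lay to 64.1% in cluster 29 and to 23.6% in cluster 18. The others lay to 48.8% and 70.7% in cluster 18, which carries no name and held mostly cells gated as type 1 dendritic cells. A further 27.3% and 10.5% of them lay in interstitial macrophage cluster 15. Cluster 29 held 135 and 203 cells of the controls, 0 and 2 after LPS, and 0 and 0 after SLC activation plus LPS. So these tests, too, compare partly different cells. The call after LPS ended without control_1 or control_2, and that after SLC activation plus LPS also without SLC_1 or SLC_2 and with stricter cell filters. Without LPS_1 the counts were 1 and 4, and without LPS_2 3 and 6.

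For 3 more myeloid classes the marker gate held different cells in the 3 groups. They are not compared as classes, and a call in them compares different cells. Cells gated as type 1 conventional dendritic cells, which take up dead cells, lay to 95.2% in cluster 18 in the controls, but 67.4% to 82.9% of them lay in neutrophil clusters in the libraries given LPS, and their median depth was 4963.5 and 3914.5 UMIs in the controls and 1030 to 1958 in the others. Mki67 stood there at 401 and 466 CPM in the controls, 245 and 388 after LPS, and 103 and 170.0 after SLC activation plus LPS. The test called it lower after SLC activation plus LPS, at −1.86 (SE 0.351, adjusted p = 0.00538), where 9.01% of 6606 genes were called lower. Without the cells in neutrophil clusters it stood at 401 and 466 CPM in the controls, 245 and 385 after LPS, and 131 and 190.3 after SLC activation plus LPS, from 206, 272, 56, 14, 25 and 48 cells, too few in LPS_2 for a test. So Mki67 was lowest in SLC_1 and SLC_2 on both counts. After LPS, where 14.2% of genes were called in either direction, no member of 26 tested passed (2 at an unadjusted p under 0.05, DESeq2 0), with the smallest p for Mcm6, 1.40 (SE 0.467, adjusted p = 0.0732), and Stmn1, −1.22 (SE 0.536, adjusted p = 0.168).

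Ly6c2-positive monocytes, the blood monocytes that enter inflamed tissue, were 121 and 100 cells in the controls and 1181 to 2632 in the others. Control cells lay to 60.6% in cluster 13, named nonclassical monocyte, and to 13.6% in a T cell cluster, while the others lay to 37.7% and 45.1% in cluster 8 of their own name and to 25.4% to 42.9% in neutrophil clusters. Their 38 genes held 1164 and 897 CPM in the controls, 751 and 539.6 after LPS, and 689 and 733 after SLC activation plus LPS, lowest in the 4 libraries given LPS. The centromere motor Cenpe stood at 36.1 and 30.8 CPM in the controls, 4.08 and 2.39 after LPS, and 4.54 and 3.22 after SLC activation plus LPS. The test called it lower after LPS, at −2.98 (SE 0.598, adjusted p = 0.0321), where 0.416% of 12257 genes were called lower, and after SLC activation plus LPS, at −2.81 (SE 0.595, adjusted p = 0.0393), where 0.49% were. Without the cells in neutrophil clusters Cenpe stood at 36.1 and 30.8 CPM in the controls, 4.46 and 2.67 after LPS, and 4.69 and 3.81 after SLC activation plus LPS. No other of the 38 members passed in either comparison, and the members' medians were −0.95 and −0.79 against 0.20 and 0.16 over all genes. Both calls ended without control_1 or control_2, with stricter cell filters and without the top 6% of doublet scores, and the second also without SLC_1 or SLC_2. Without LPS_1 the counts of lower members were 4 and 2.

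Among lymphocytes, NK cells, which kill infected cells, held the members at 1714 and 2155 CPM in the controls, 3599 and 5014 after LPS, and 1612 and 3776 after SLC activation plus LPS. SLC_1, with 116 NK cells, lay below both controls, and the other libraries given LPS lay above them. Thinned to 1000 UMIs, the share of NK cells with at least 3 member UMIs was 14.1% and 17.0% in the controls, 28.0% and 34.8% after LPS, and 17.0% and 27.9% after SLC activation plus LPS. After LPS 3 of 29 members tested were higher, where 0.322% of 7446 genes were: Cenpe at 2.57 (SE 0.466, adjusted p = 0.0488), Uhrf1 at 2.54 (SE 0.469, adjusted p = 0.0488) and Tpx2, which builds spindle microtubules around chromosomes, at 2.51 (SE 0.477, adjusted p = 0.0488). Cenpe stood at 8.38 and 7.43 CPM in the controls, 49.3 and 40.8 after LPS, and 21.5 and 38.1 after SLC activation plus LPS, Uhrf1 at 7.45 and 11.9 CPM in the controls, 50.9 and 50.8 after LPS, and 16.1 and 33.1 after SLC activation plus LPS, and Tpx2 at 6.52 and 11.9 CPM in the controls, 41.1 and 51.7 after LPS, and 32.2 and 50.9 after SLC activation plus LPS. In these 3 genes both LPS libraries lay above both controls, and above SLC_1. After SLC activation plus LPS none of 29 passed, where 0.295% of genes were called in either direction (10 at an unadjusted p under 0.05, DESeq2 0), and the smallest p were those of Tpx2, 2.37 (SE 0.535, adjusted p = 0.123), and Cenpe, 2.06 (SE 0.544, adjusted p = 0.196). NK cells lay to 95.1%, 95.5% and 97.2% in cluster 12 in the 3 groups, and T cell markers over 12 genes stood at 666 to 984 CPM in them. The 3 calls had adjusted p just under the threshold and ended without control_1 or control_2, with library totals, with stricter cell filters, without the top 6% of doublet scores and without cells in neutrophil clusters. Without LPS_1 there were 22 and 4, without LPS_2 9 and 4, without SLC_1 4 after LPS, Cenpe no longer among them, and without SLC_2 6.

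T cells held the members at 2146 and 1753 CPM in the controls, 2785 and 2703 after LPS, and 2062 and 3114 after SLC activation plus LPS, and no member passed (10 and 11 of 36 tested at an unadjusted p under 0.05, DESeq2 1 and 0), where 0.329% and 0.0106% of 9431 genes were called in either direction. The smallest p after LPS were those of Top2a, 1.29 (SE 0.282, adjusted p = 0.1), and Mcm5, 0.97 (SE 0.303, adjusted p = 0.255), and after SLC activation plus LPS those of Top2a, 1.03 (SE 0.286, adjusted p = 0.3), and Tpx2, 1.499 (SE 0.487, adjusted p = 0.371). T cells were 24.0% and 17.7% of all control cells with at least 3 member UMIs among 1000, 13.1% and 13.1% after LPS and 5.72% and 17.6% after SLC activation plus LPS. NK cells were 10.1% and 8.33%, 7.83% and 24.1%, and 2.26% and 8.73% of such cells, and alveolar macrophages 7.76% and 20.03%, 11.3% and 20.1%, and 28.9% and 16.4%. For NK cells and alveolar macrophages the libraries of 1 group lay as far apart as the groups. Ungated cells were 3.31% and 3.22%, 16.3% and 6.17%, and 11.3% and 4.36% of such cells, in the same order. In B cells the members held 947 to 1456 CPM, and in group 2 innate lymphoid cells 622 to 1661 CPM, with no call among 19 and 14 members tested, where 0.156% and 0.276% of genes were called in either direction in B cells and 0.0496% and 0% in innate lymphoid cells. At an unadjusted p under 0.05 there were 0 and 2 members in B cells and 3 and 1 in innate lymphoid cells, and DESeq2 called 0. The innate lymphoid cells lay to 60.1% in their own cluster 26 and 31.6% in T cell cluster 20 in the controls, to 26.3% and 45.5% in these after LPS, and to 40.1% in cluster 20 and 22.7% in monocyte cluster 8 after SLC activation plus LPS, so their tests compare different cells. The smallest p in B cells were those of Top2a and Cenpe after LPS (0.60 and −0.73) and of Prc1 and Rrm2 after SLC activation plus LPS (2.30 and 1.59, adjusted p at least 0.29). In innate lymphoid cells Mki67 had the smallest p in both, at 2.21 (SE 0.459, adjusted p = 0.147) and 1.77 (SE 0.469, adjusted p = 0.131), followed by Mcm3 at 1.54 and Stmn1 at 1.00.

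Fibroblasts, the matrix-making cells of the lung, held the members at 486 and 597 CPM in the controls, 1499.9 and 575 after LPS, and 1923 and 1383 after SLC activation plus LPS. LPS_2 lay near the controls while LPS_1, SLC_1 and SLC_2 lay above them. All 38 members could be tested and none passed, where 0% of 11858 genes were called in either direction in the LPS comparison and 0.0169% in the other. Unadjusted p fell under 0.05 for 20 and 34 members, and DESeq2 called 2 and 19. The shares of all genes by those 2 measures are not given here, and the 0% and 0.0169% are no background for them. The members' median log2 differences were 1.78 and 2.63 against 0.01 and 0.01 over all genes. The controls and treated libraries did not overlap, the treated being higher, for 16 members after LPS, where that held for 12.9% of all genes, and for 37 after SLC activation plus LPS, where it held for 22.2%. The smallest p after LPS were those of Top2a, 2.98 (SE 0.764, adjusted p = 0.296), and Bub1, a spindle checkpoint kinase, 3.41 (SE 1.03, adjusted p = 0.394). After SLC activation plus LPS they were those of Tyms, 2.26 (SE 0.382, adjusted p = 0.141), and Rrm2, 2.51 (SE 0.45, adjusted p = 0.148), which both supply nucleotides for DNA. Without LPS_2 the calls were 22 and 29, and without LPS_1 0 and 30. Alveolar macrophage markers, at 122 to 696 CPM in these cells, were lowest in LPS_2 and highest in SLC_2, and their part in the members' levels was not tested.

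Endothelial cells, which line the vessels, held the members at 869 and 849.7 CPM in the controls, 1031 and 1069 after LPS, and 1766 and 1122 after SLC activation plus LPS, with SLC_1 above the rest. No member of 16 tested passed, where 0.267% of 7871 genes were called in either direction in the LPS comparison and 0.0254% in the other (0 and 5 at an unadjusted p under 0.05, DESeq2 0 and 2). Cenpf, a kinetochore protein, and Tpx2 had the smallest p after SLC activation plus LPS, at 4.85 (SE 0.79, adjusted p = 0.0735) and 3.59 (SE 0.624, adjusted p = 0.095). Cenpf stood at 2.71 and 0 CPM in the controls, 0 and 0.613 after LPS, and 60.6 and 41.8 after SLC activation plus LPS. Tpx2 and Pcna had the smallest p after LPS, at 1.503 (SE 0.695, adjusted p = 0.455) and 0.75 (SE 0.403, adjusted p = 0.527). Without LPS_1 the calls were 1 and 9, and without LPS_2 0 and 7. Alveolar type 2 cells, the surfactant-making epithelium, numbered 33 to 119 a library, and none of 11 members passed (3 and 3 at an unadjusted p under 0.05, DESeq2 0), where 0.436% and 0.981% of genes were called in either direction. Of these, Cdk1 had the smallest p after SLC activation plus LPS, 4.04 (SE 0.999, adjusted p = 0.104), with 7.98 and 0 CPM in the controls, 19.4 and 36.3 after LPS, and 69.2 and 45.1 after SLC activation plus LPS, and Top2a after LPS, 3.36 (SE 1.17, adjusted p = 0.351). In club and mural cells, with 10 and 5 members tested, none passed (DESeq2 0). Of all genes 0.111% and 0% were called there in either direction after LPS, and 0.0667% and 0% after SLC activation plus LPS. Unadjusted p were under 0.05 for 0 and 1 members and for 0 and 0. The smallest p after LPS were those of Top2a (0.90) and Mki67 (1.85). After SLC activation plus LPS they were those of Stmn1 (0.88) and Mki67 (1.65). In the nonclassical monocyte gate 9 members were tested and none passed in either comparison (DESeq2 0), with an unadjusted p under 0.05 for 0 and 1, against 0.732% and 0.0892% of all genes called in either direction. Neutrophil clusters held 70.1% and 3.51% of its cells in the LPS libraries and 75.7% and 67.3% in the SLC activation plus LPS libraries, against 0.407% and 0.595% in the controls. Without those cells Mki67 stood at 3.84 and 44.6 CPM in the controls, 79.5 and 25.9 after LPS, and 79.3 and 95.6 after SLC activation plus LPS.

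Neutrophils, short-lived cells that leave the marrow after their last division, held the members at 494 and 472 CPM in the controls, 594 and 299.6 after LPS, and 532 and 440.0 after SLC activation plus LPS. None of 36 members passed, where 1.57% and 2.63% of 12313 genes were called in either direction (2 and 1 at an unadjusted p under 0.05, DESeq2 0 higher and, after SLC activation plus LPS, 1 lower). The smallest p after LPS were those of Ccnb2, a mitotic cyclin, 1.44 (SE 0.573, adjusted p = 0.208), and Mki67, 1.01 (SE 0.443, adjusted p = 0.256). After SLC activation plus LPS they were those of Kif23, which acts in the last step of cell division, −1.502 (SE 0.369, adjusted p = 0.0612), and Cenpa, the histone of centromeres, −0.66 (SE 0.322, adjusted p = 0.293). Kif23 stood in neutrophils at 78.5 and 116 CPM in the controls, 45.2 and 60.1 after LPS, and 34.7 and 35.4 after SLC activation plus LPS. All of these clusters carried neutrophil markers, but control neutrophils lay to 88.9% in cluster 3, those after LPS to 33.2% in cluster 9 and 27.9% in cluster 2, and those after SLC activation plus LPS to 36.3% in cluster 1 and 26.5% in cluster 2.

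**Figure D4:**
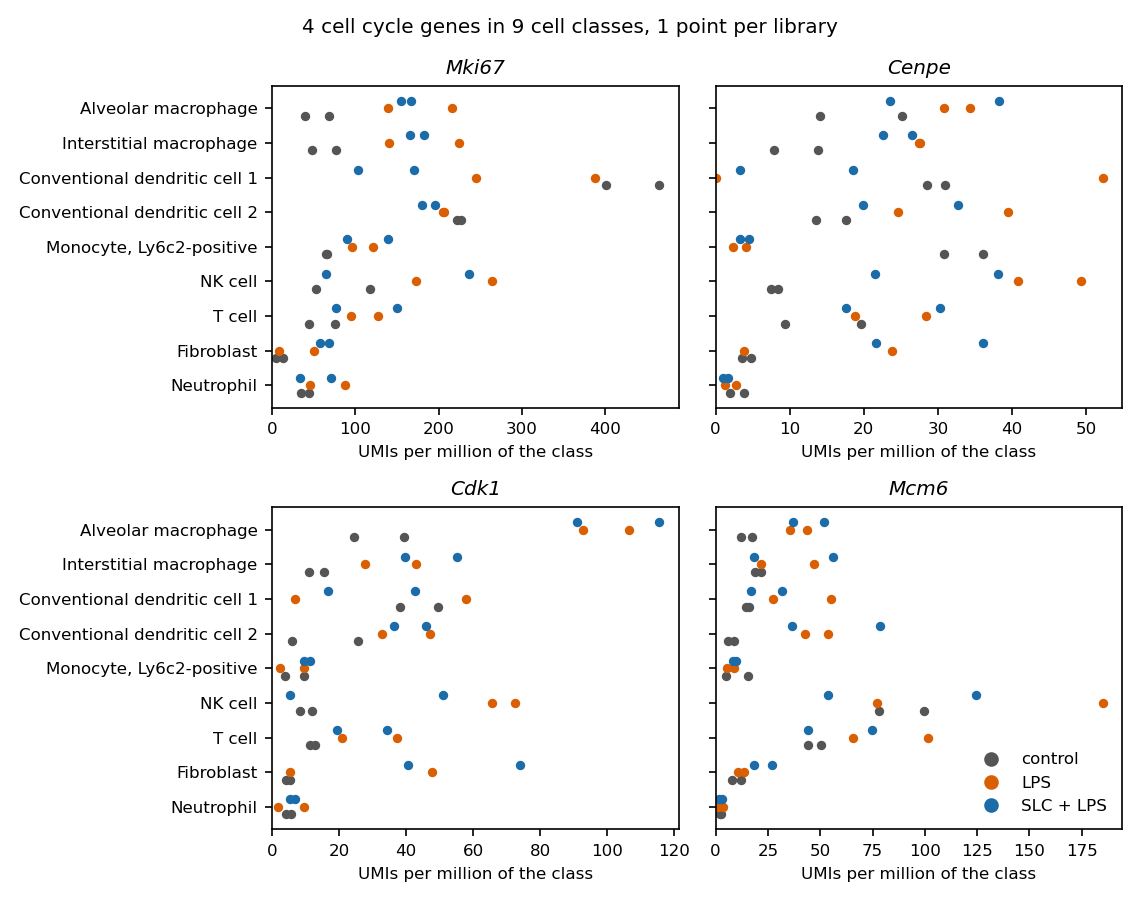
Each point is 1 library's level, in CPM of the class, of Mki67, Cenpe, Cdk1 or Mcm6 (horizontal axes) in 9 cell classes (vertical axis), coloured by group. The dendritic cell 1 and Ly6c2-positive monocyte classes held other cells in the controls than after LPS, with 25.4% to 82.9% of the latter in neutrophil clusters. Dendritic cell 2 cells lay to 64.1% in cluster 29 in the controls, and to 48.8% and 70.7% in cluster 18 in the other groups. Cenpe lay at 36.1 and 30.8 in the control monocytes and at most at 4.54 in the others.

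SLC activation plus LPS against LPS alone asks what the activation added. Over whole libraries 0 of 38 members passed, and 0 of 17900 genes were called (0%). No member had an unadjusted p under 0.05, DESeq2 called 0, and 25 of 38 differences were above 0, with a median of 0.11. The smallest p belonged to Kif20a, a kinesin of the central spindle, at 0.64 (SE 0.3, adjusted p = 0.922), with 3.74 and 3.81 CPM in the controls, 6.54 and 5.08 after LPS, and 9.97 and 8.22 after SLC activation plus LPS, and to Top2a, at −0.46 (SE 0.242, adjusted p = 0.922). So both SLC libraries lay above both LPS libraries in Kif20a, by less than the test could separate. That order held for 6 members, where it held for 13.3% of all genes, and the reverse for 1, where it held for 11%. In alveolar macrophages 0 of 38 passed, where 0% of 11738 genes did, and Cdca8, a partner of Aurora B at the centromere, had the smallest p, at 0.82 (SE 0.346, adjusted p = 0.971), the 1 member with an unadjusted p under 0.05 there (DESeq2 0). Plk1 followed, at 0.82 (SE 0.488, adjusted p = 0.971). In no other class did a member pass, where 0.00816% of genes were called in either direction in Ly6c2-positive monocytes, 0.00812% in neutrophils, 0.0106% in T cells and 0% in the rest, and in 10 of them at least 1 had an unadjusted p under 0.05. In fibroblasts 37 of 38 differences were above 0, with a median of 0.79, the smallest p being that of Mcm2, 1.43 (SE 0.377, adjusted p = 0.915). In endothelial cells it was that of Cenpf, 6.22 (SE 1.05, adjusted p = 0.332). Leaving out LPS_1 gave calls, 25 higher in fibroblasts, 6 higher and 1 lower in endothelial cells, 3 higher in Ly6c2-positive monocytes, 1 lower in the nonclassical monocyte gate and 3 lower in NK cells. The 2 monocyte gates held different cells by group.

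Other genes of the cycle were read over whole libraries from lists by role, and not by class. Fibroblasts were 16.6% and 22.2% of cells in the controls and 2.49% to 6.48% in the others. Endothelial cells were 9.02% and 5.17% in the controls and 0.711% to 5.35% in the others. The part of this changed mix of cells in the values below was not tested. Among 9 G1 cyclins and kinases, which lead cells from growth signals to replication, none was higher and Ccnd1, cyclin D1, was lower in both comparisons. Ccnd1 stood at 77.2 and 70.0 CPM in the controls, 27.7 and 32.6 after LPS, and 33.2 and 28.2 after SLC activation plus LPS, and fell by 0.91 (SE 0.205, adjusted p = 0.047) after LPS and by 0.89 (SE 0.205, adjusted p = 0.0409) after SLC activation plus LPS on the log2 scale. Among 16 E2F, RB and MuvB-MYB-FOXM1 regulators 1 was higher in each, E2f8, which represses E2F targets, by 1.61 (SE 0.314, adjusted p = 0.0352) after LPS. E2f8 stood at 3.83 and 3.20 CPM in the controls, 7.34 and 9.29 after LPS, and 8.17 and 5.95 after SLC activation plus LPS. None of 8 CDK inhibitors passed after LPS (2 at an unadjusted p under 0.05, DESeq2 1 higher and 1 lower). With SLC activation added Cdkn3, a phosphatase of Cdk1 and Cdk2, was higher by 1.37 (SE 0.327, adjusted p = 0.0443) and Cdkn1c, which encodes p57, lower at −2.33 (SE 0.504, adjusted p = 0.0372). Cdkn1c stood at 47.5 and 58.2 CPM in the controls, 6.199 and 18.04 after LPS, and 9.86 and 6.47 after SLC activation plus LPS. Of 11 origin licensing and firing genes none passed after LPS (5 at an unadjusted p under 0.05, DESeq2 4 higher) and 3 were higher after SLC activation plus LPS, Mcm10 by 1.89 (SE 0.405, adjusted p = 0.0367), Gins2 by 1.64 (SE 0.355, adjusted p = 0.0367), and Cdc45. Among 10 checkpoint kinases and CDC25 genes Mdm2, the ligase that degrades p53, was higher in both, by 2.09 (SE 0.229, adjusted p = 0.0165) after LPS, at 101 and 110.3 CPM in the controls, 389 and 304 after LPS, and 320.0 and 302 after SLC activation plus LPS. None of 8 quiescence and antiproliferative genes passed (4 and 3 at an unadjusted p under 0.05, DESeq2 0 and 1 lower), with the smallest p for Foxo1, −1.03 (SE 0.308, adjusted p = 0.0726), and Klf4, −0.70 (SE 0.209, adjusted p = 0.073), after SLC activation plus LPS. These counts stand beside the 3.96% of genes called higher and 3.88% called lower after LPS, and 5.2% and 7.17% after SLC activation plus LPS. Against LPS alone, SLC activation plus LPS had 0 genes of these lists called by edgeR, as of all genes, with 0 at an unadjusted p under 0.05 and 0 by DESeq2. None of the calls named in these lists held without control_1 or without control_2, and without SLC_1 or SLC_2 that of Mdm2 after LPS alone held.

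How far a member's UMIs lie in the same cells as those of the others was measured on cells thinned to 1000 UMIs. Taking Mcm2 as the gene, cells with at least 5 UMIs of the other members were 1.91% to 3.60% of cells in a library. Medians over the 6 libraries of the share of a gene's UMIs lying in them ran from 7.6% for Pcna and 7.8% for Bub1b to 70.9% for Bub1 and 73.4% for Ccna2. Ccna2, cyclin A2, and the mitotic genes Hmmr (63.4%), Ccnb1 (62.2%) and Ube2c (58.6%) thus lay mostly in cells rich in the rest. The roles overlapped: replication genes ran from Pcna through Mcm4 (12.9%) and Rrm1 (30.6%) to Rrm2 (54.5%), and mitotic members such as Cenpa (14.3%), Kif23 (15.0%), Aurka (17.5%) and Mki67 (20.4%) lay low as well. Rarely detected genes and broad ones differ in depth, which was not separated here. For some members the share turned on the cell class. Mki67 had 60.8% of its 370 UMIs in rich cells in alveolar macrophages, 74.5% in NK cells and 67.3% in T cells, but 2.43% of 1029 UMIs in neutrophils and 1.64% of 733 in Ly6c2-positive monocytes. Kif23 had 67.9% in alveolar macrophages and 0.597% of 1005 UMIs in neutrophils. Pcna had 27.6% in alveolar macrophages and 0.618% in neutrophils. Ccna2 kept 86.3%, 95.6% and 88.5% in alveolar macrophages, NK cells and T cells. Cells rich in members other than Mki67 were 13.03% of alveolar macrophages and 0.202% of neutrophils. Outside the members, the mitotic kinase Ttk had 56.7%, Foxm1 35.7% and the antiproliferative gene Btg2 1.4%.

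**Figure D5:**
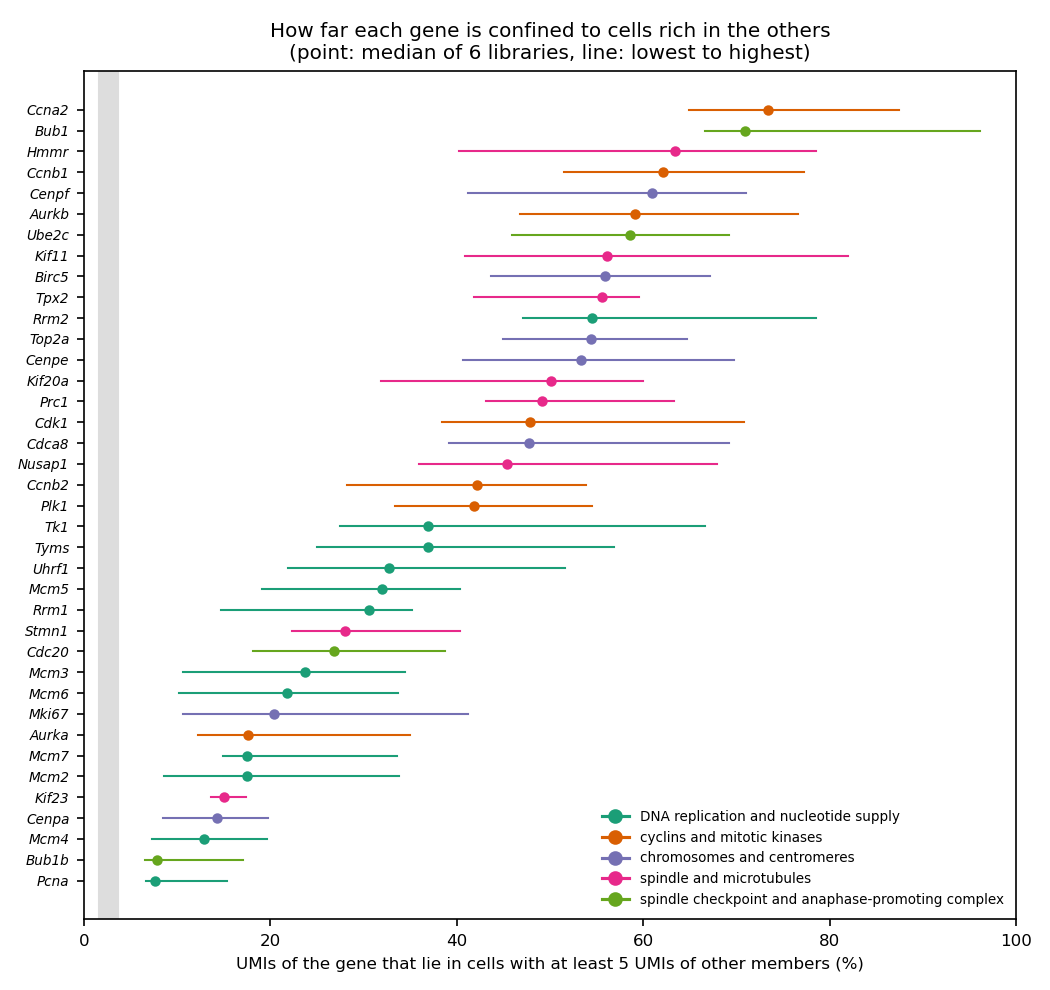
For each of the 38 genes (vertical axis) the point is the median over 6 libraries, and the line the lowest to highest library, of the percent of its UMIs in cells holding at least 5 UMIs of the other members, after thinning to 1000 UMIs (horizontal axis). Ccna2 and Bub1 stand highest, at medians of 73.4% and 70.9%, and Pcna and Bub1b lowest, at 7.6% and 7.8%.

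Over the 96 sums of 16 classes in 6 libraries, each gene's level, as log2 of CPM plus 10, was also compared with the members' summed level on that scale. Among 8688 other genes Pclaf, which binds PCNA, and Racgap1, a partner of Kif23 at the central spindle, were most like it, with Pearson's r of 0.872 each, followed by Tacc3 at 0.848, Kif15 at 0.847 and Asf1b at 0.846. Of the members, set against the rest, Birc5 (0.876), Ccna2 (0.874) and Top2a (0.870) were most alike and Cdc20 (0.341), Kif23 (0.424), Plk1 (0.428) and Bub1b (0.452) least. These are descriptions over sums that share libraries, classes and depth, so they carry no p.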

How the data were processed

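Lungs of 6 mice, 2 per group, were profiled as BD Rhapsody whole-transcriptome libraries, sequenced on a DNBSEQ-T7 with paired ends, per the labels' protocols. The authors deposited unfiltered UMI counts per gene and barcode for each library. The builds GRCm39 and mm39 come from the submitters' processing notes, while the counting tool and its handling of reads shared by gene copies (Pcna has processed pseudogenes) are not given in the sources used here. From these counts, barcodes with at least 500 UMIs, 300 genes and at most 20% mitochondrial UMIs were kept as cells, and barcodes with 10 to 99 UMIs gave the free RNA.

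Each cell was scored for 27 marker classes by the Poisson tail of its marker UMIs over 30% free RNA. It took the class with the highest score, given at least 2 marker genes and a score of at least 3, and was otherwise left ungated. Clusters (scanpy 1.11.5, leidenalg 0.10.2, 3000 variable genes, 40 components, 20 neighbours, resolution 1) served to check the classes and were named by the same markers. UMIs were summed per library and over the 16 classes with at least 20 cells in each library, and 17 sets of sums were tested with edgeR 4.0.16 (quasi-likelihood, TMM, filterByExpr, robust) in R 4.3.3, with all 6 libraries in 1 fit, an adjusted p under 0.05 as the threshold and DESeq2 1.42.0 as an alternative. The members are those of the rule, and members, markers and lists were chosen with earlier results of these data known. Named are members that passed (the 4 with the smallest p where more passed), the 2 with the smallest p where none passed, the 2 highest members of each role, the 2 of each pathway list with the smallest p, and the 5 genes most like the members. The genes singled out for the cells their UMIs lie in were chosen after their values were seen. Counts at an unadjusted p under 0.05 and by DESeq2 stand without the share of all genes at those thresholds. Other alternatives were no filter on low counts, the replicate block, library totals, stricter cell filters (1000 UMIs, 500 genes, 10% mitochondrial), classes from clusters, doublet scores, leaving out cells in neutrophil clusters, and leaving out each library. The fit was also run on data simulated with the same spread for all genes and groups and with large changes only. Such a run does not show how the fit does on the spread between these mice. Levels over the 6 libraries rest on 31589233 to 48641470 UMIs each; thinning to 1000 UMIs was used for shares of cells.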

Additional observations from a re-analysis of the deposited data

Results flagged for a closer look

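Differences between cell classes in the response to treatment were tested by an interaction term in edgeR, over summed counts of 2 classes in the 6 libraries, for 4 pairs of classes chosen after the results by class were seen. Each mouse gives both classes of a pair, and there are 3 residual degrees of freedom among mice.

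Between alveolar macrophages and the type 1 dendritic cell gate, the term for Mki67 was 2.78 on the log2 scale after LPS (adjusted p = 7.73e-08, edgeR) and 3.78 after SLC activation plus LPS (adjusted p = 5.1e-11). Over that pair 3 and 7 of 38 members passed, all higher in alveolar macrophages, where 9.03% and 11.1% of genes passed in either direction. The dendritic cell gate held 67.4% to 82.9% of cells in neutrophil clusters in the treated libraries and 0% in the controls, so the term compares different cells and is no difference in response between 2 cell types.

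For Cenpe the term between alveolar macrophages and the Ly6c2-positive monocyte gate was 4.11 after LPS (adjusted p = 4.28e-04, edgeR) and 3.8 after SLC activation plus LPS. Between NK cells and that gate it was 5.81 (adjusted p = 0.00206) and 5.02 (adjusted p = 0.0062). In these pairs 7 and 6 of 38 and 4 and 1 of 33 members passed, where 1.85%, 2.2%, 0.812% and 0.91% of genes did. The monocyte gate also held other cells in the controls, 60.6% of them in the nonclassical monocyte cluster, so these terms too compare different cells and are not read as a difference in response.

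Cenpa changed more in alveolar macrophages than in neutrophils, by 1.97 in both comparisons, the 1 member of 38 to pass in each, a share near the 1.62% and 2.24% of all genes that passed. Neutrophils lay mostly in other neutrophil clusters after treatment (88.9% in cluster 3 in the controls). Alveolar macrophages lay to 96.9% in cluster 14 in the controls, and to 76.6% and 74.8% in cluster 16 in the other groups. So the term compares cells of different clusters on both sides, and the part of these shifts was not tested. Cenpa was 36.8 and 47.7 CPM in control alveolar macrophages and 83.9 to 111 CPM in the others.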

How the results depend on the processing

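The replicate numbers did not pair the mice. The deviations of the replicate 1 libraries correlated at 0.076 (control with LPS), −0.178 (control with SLC activation plus LPS) and −0.200 (LPS with SLC activation plus LPS). With the replicate number as a block, 0 and 1 members passed over whole libraries and 4 and 4 over the cell classes, for LPS and for SLC activation plus LPS against control. In that order, whole libraries gave 9 and 12 calls, 18 and 21 with no filter on low counts, 2 and 5 with library totals, and 18 and 23 with DESeq2. Leaving out 1 library gave 0 to 17 and 0 to 22. The classes gave 19 and 25 calls, 86 and 103 with no filter, 42 and 62 with DESeq2, and 0 to 63 and 1 to 97 leaving out 1 library. For SLC activation plus LPS the class calls were 16 with stricter cell filters and 16 with classes from clusters. Against LPS alone there were 0 class calls, 2 with no filter and 0 to 39 leaving out 1 library. The cause of these differences was not tested.

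Of 65 calls of members, none changed direction under any alternative run. Leaving out control_1 or control_2 ended 64 each, the replicate block 59, SLC_1 52, SLC_2 49, library totals 29, stricter cell filters 18, the top 6% of doublet scores 12, classes from clusters 8 of those they could give, Scrublet's calls 6, DESeq2 4, the cells in neutrophil clusters 3 and LPS_1 1. LPS_2 and no filter ended 0. Library totals, Scrublet's calls, the top 6% of doublet scores for counts and the neutrophil clusters were chosen after seeing the data. Type 1 dendritic cells could not be tested without cells in neutrophil clusters.

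The share of cells with at least 3 member UMIs was 23.8%, 27.5% and 19.1% in the control, LPS and SLC plus LPS groups. It was 40.1%, 40.9% and 30.5% at a minimum of 2 UMIs, 9.23%, 14.6% and 10.02% at 5, and 7.21%, 8.05% and 7.01% after thinning. With stricter cell filters it was 30.1%, 29.5% and 24.5%, so the order of the control and LPS groups turned. Leaving out 1 library gave 22.1% to 25.4%, 23.5% to 31.5% and 17.0% to 21.2%.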

Other observations

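Some classes were too small for a test, and their summed levels are given with exact 95% Poisson intervals, which cover counting error only. Erythroid cells, whose precursors divide in marrow, held the members at 18538 CPM (17519 to 19601) in 30 cells of control_1, 4159 CPM (3516 to 4885) in 23 cells of control_2 and 20628 CPM (18478 to 22960) in 8 cells of LPS_1. These are the highest levels of any gated class in the 3 libraries, and 19 of the 30 cells, 7 of the 23 and 6 of the 8 had at least 3 member UMIs. Mature dendritic cells, which carry antigen to lymph nodes, held 909 and 1175 CPM in the controls, 1601 and 978 after LPS, and 1081 and 909.6 after SLC activation plus LPS. LPS_1 was highest and the groups overlap.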
